A study of Mus musculus with 2 samples.

Results

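The 10 genes described here encode proteins that bind microtubules or the tubulin they are built from: the structural microtubule-associated proteins (MAPs) Mapt (tau), Map1a, Map1b, Map2 and Map6, the neuronal migration protein Dcx (doublecortin), and the 4 stathmins Stmn1, Stmn2, Stmn3 and Stmn4. They were chosen by name as a gene family, not by their levels, and are 10 of the 55536 annotated genes in the deposited gene tables. Total RNA came from the left cerebral cortex of 10-day-old male mice of the hybrid B6CASTF1/J, bred from the strains C57BL/6J and CAST/EiJ. There were 2 libraries in 1 group, called replicate 1 and replicate 2, each from 300 ng of RNA and with ERCC spike-ins (a set of synthetic RNAs). With no mutant, treated or control group in the study, no p-value is given. Both libraries carry 1 donor identifier in the labels, although their animals are numbered apart and they are listed as biological replicates. The authors deposited 2 quantifications of the same reads, called first and second here, and values are from the first unless the second is named. Errors are the SD of these 2 libraries (n = 2), which may be technical in part.

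Structural MAPs lie along the microtubule and stabilise it. Tau is found mainly in axons and MAP2 mainly in dendrites, and both bind through a row of short repeats near their C-terminal end. MAP1B is the MAP1 protein of growing axons and MAP1A that of maturing dendrites, and each is cut after translation into a heavy and a light chain. MAP6 makes microtubules resistant to cold, and doublecortin binds the lattice in migrating and newly settled neurons. Stathmins act the other way: they sequester tubulin dimers and promote depolymerisation, and phosphorylation turns this activity off. In rodents, tau and MAP2 change form after birth. Fetal tau lacks the repeat encoded by exon 10 and adult tau holds it, while the short juvenile MAP2 gives way to long forms with a large central domain.

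The stathmins are shown by the coding exon that the 4 genes share and by the exon that sets 3 of them apart. The shared exon is 192 bases long in each gene and encodes part of the tubulin-binding region. In Stmn1 it lies at chr4:134472804-134472995 (mm10) on the plus strand, in Stmn2 at chr3:8554792-8554983 on the plus strand, in Stmn3 at chr2:181307216-181307407 on the minus strand and in Stmn4 at chr14:66357846-66358037 on the plus strand. Capitals mark the 111 positions at which the 4 genes agree.
Stmn1 core exon: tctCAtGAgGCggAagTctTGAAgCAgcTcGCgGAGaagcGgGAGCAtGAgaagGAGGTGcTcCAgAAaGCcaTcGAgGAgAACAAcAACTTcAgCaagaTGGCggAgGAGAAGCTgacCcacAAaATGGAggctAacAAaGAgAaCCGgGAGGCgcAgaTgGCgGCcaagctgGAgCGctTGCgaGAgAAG
Stmn2 core exon: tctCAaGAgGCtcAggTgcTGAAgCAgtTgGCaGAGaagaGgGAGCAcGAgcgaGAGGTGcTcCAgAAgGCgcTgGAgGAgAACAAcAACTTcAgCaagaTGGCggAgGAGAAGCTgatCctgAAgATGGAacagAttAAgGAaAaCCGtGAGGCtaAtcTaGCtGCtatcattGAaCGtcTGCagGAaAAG
Stmn3 core exon: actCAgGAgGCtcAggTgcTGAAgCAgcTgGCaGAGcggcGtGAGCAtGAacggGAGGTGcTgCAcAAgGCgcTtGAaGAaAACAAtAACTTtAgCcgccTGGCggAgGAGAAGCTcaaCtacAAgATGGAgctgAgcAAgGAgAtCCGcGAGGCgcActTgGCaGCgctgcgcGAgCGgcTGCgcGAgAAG
Stmn4 core exon: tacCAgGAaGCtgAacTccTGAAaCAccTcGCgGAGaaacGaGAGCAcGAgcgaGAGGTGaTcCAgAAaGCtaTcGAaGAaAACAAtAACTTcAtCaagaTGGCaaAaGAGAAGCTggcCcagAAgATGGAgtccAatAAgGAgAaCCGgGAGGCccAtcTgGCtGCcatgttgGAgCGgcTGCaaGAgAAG

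Pairwise identity over this exon ran between 69.8% for Stmn3 with Stmn4 and 79.2% for Stmn1 with Stmn4. Stmn1, the cytosolic member, has 4 coding exons and none of 96 bases. Stmn2, Stmn3 and Stmn4 have 5 and share an exon of 96 bases near the start of the protein, which attaches these stathmins to membranes through cysteines that carry palmitate. It lies at chr3:8541841-8541936 in Stmn2, chr2:181309147-181309242 in Stmn3 (minus strand) and chr14:66355586-66355681 in Stmn4. Capitals mark its 2 in-frame cysteine codons, which all 3 genes hold at the same place. Stmn2 and Stmn3 were identical at 75% of the bases, against 65.6% for Stmn2 with Stmn4 and 66.7% for Stmn3 with Stmn4.
Stmn2 96-base exon: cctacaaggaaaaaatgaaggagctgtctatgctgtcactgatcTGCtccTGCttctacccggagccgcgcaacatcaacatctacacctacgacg
Stmn3 96-base exon: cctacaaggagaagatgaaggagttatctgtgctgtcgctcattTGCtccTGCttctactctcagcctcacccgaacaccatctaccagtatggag
Stmn4 96-base exon: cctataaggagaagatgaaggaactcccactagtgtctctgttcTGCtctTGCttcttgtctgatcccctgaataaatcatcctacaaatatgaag

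All 10 genes were expressed well above the detection minimum of 1 TPM (abundance corrected for transcript length, with an equal total per library) in both libraries, where 59.6% of the 22028 protein-coding genes passed it. Together they took 0.864 ± 0.00033% of the TPM of nuclear protein-coding genes. Shares are given over these genes because they held 48.0% and 49.0% of all TPM in the first quantification and 78.0% and 79.3% in the second, so that absolute TPM of the 2 are not on 1 scale. The stathmins alone took 0.520 ± 0.0053%, the MAP1, MAP2 and tau genes 0.305 ± 0.0048%, and Map6 with Dcx 0.0394 ± 0.00017%. By expected counts, which are not corrected for length, this order turned round. The 4 long MAP genes took 0.690 ± 0.014% of all counts and the 4 stathmins 0.193 ± 0.00072%.

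Stmn2 and Stmn1 headed the order of levels and Dcx closed it, 11.2-fold below Stmn2. The 10 genes stood between place 16 (Stmn2) and place 1281 (Dcx) among 22015 nuclear protein-coding genes. Of the 9 pairs of neighbours in the order, 2 overlapped between libraries and could not be ranked: Stmn2 with Stmn1, and Stmn3 with Map1b. The other 7 neighbours did not overlap, the closest being Map2 above Stmn3 by 1.12-fold. This order is that of the first quantification. In the second, Stmn4 stood above Mapt, at means of 607 and 415 TPM.

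**Figure D1:**
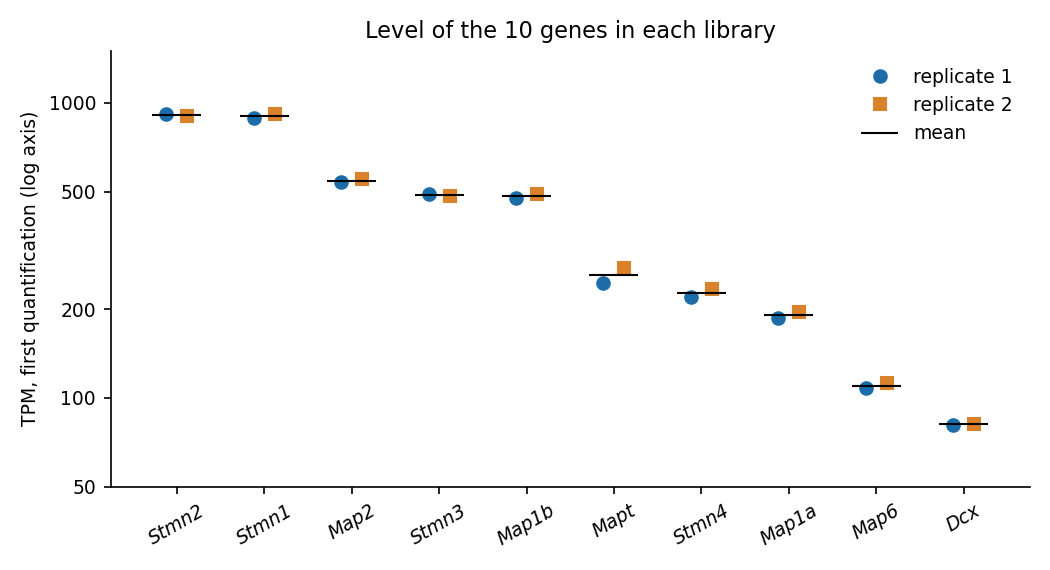
TPM of each gene in the first quantification (log axis) for replicate 1 (circles) and replicate 2 (squares), with the mean of both as a line. The genes fall between 81.3 TPM for Dcx and 910 TPM for Stmn2 on the mean, and the libraries lie close together, with Mapt the furthest apart at 245 and 275 TPM.

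Among the MAP1 genes, Map1b was the higher. Map1b (ENSMUSG00000052727.6, chromosome 13, 99421446 to 99516540, minus strand) stood at 477 TPM in replicate 1 and 490 TPM in replicate 2, a mean of 483 ± 9.04. Map1a (ENSMUSG00000027254.13, chromosome 2, 121289600 to 121310832, plus strand) stood at 187 and 195 TPM, a mean of 191 ± 6.02. The axonal-growth member thus exceeded the dendritic one in both libraries, and Map1a reached 0.395 ± 0.0051 of the level of Map1b, a ratio that was 0.407 ± 0.0031 in the second quantification. Map1b also had the most reads of the 10 genes, with 98108 and 96718 expected counts. Map1a overlaps Ppip5k1, a gene of the opposite strand with 1576 and 1656 counts, and the labels do not say whether strand was used in counting.

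Map2 was the highest of the structural MAPs. Map2 (ENSMUSG00000015222.17, chromosome 1, 66175273 to 66442583, plus strand) stood at 538 and 551 TPM, a mean of 544 ± 8.82, from 51434 and 50928 counts. Mapt (ENSMUSG00000018411.17, chromosome 11, 104231390 to 104332090, plus strand) stood at 245 and 275 TPM, a mean of 260 ± 20.7, from 23471 and 24613 counts. The RNA of the axonal protein was therefore at 0.477 ± 0.030 of the RNA of the dendritic one. In the second quantification the ratio was 0.427 ± 0.027. Antisense genes inside these loci were almost without reads: Gm11659 at Mapt had 0 counts in either library, and Gm10558 at Map2 had 1 and 0. Since the RNA came from whole tissue, fewer cells of a type and less RNA per cell cannot be told apart for any of these genes.

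Stmn2 and Stmn1 could not be separated at gene level. Stmn2 (also called SCG10, enriched in growth cones; ENSMUSG00000027500.10, chromosome 3, 8509360 to 8561606, plus strand) stood at 918 and 902 TPM, a mean of 910 ± 10.7. Stmn1 (ENSMUSG00000028832.11, chromosome 4, 134468320 to 134473843, plus strand) stood at 891 and 915 TPM, a mean of 903 ± 17.0. Stmn2 was the higher in replicate 1 and Stmn1 in replicate 2. Stmn1 was the only member with fractional counts, at 17489 and 17238 when rounded. Stmn3 (SCLIP; ENSMUSG00000027581.12, chromosome 2, 181306459 to 181314500, minus strand) stood at 490 and 482 TPM, a mean of 486 ± 5.71. Stmn4 (RB3; ENSMUSG00000022044.14, chromosome 14, 66344296 to 66361680, plus strand) was the lowest stathmin at 219 and 233 TPM, a mean of 226 ± 9.89.

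Map6 and Dcx were the 2 lowest of the 10. Map6 (ENSMUSG00000055407.14, chromosome 7, 99267447 to 99337137, plus strand) stood at 108 and 112 TPM, a mean of 110 ± 2.92. Dcx (ENSMUSG00000031285.14, chromosome X, 143855842 to 143933311, minus strand) stood at 80.8 and 81.7 TPM, a mean of 81.3 ± 0.658. Their libraries did not overlap. A sense-intronic gene inside Map6, Gm45591, held 56 and 86 counts against 8403 and 8387 for Map6. Other markers of immature neurons and progenitors were lower still: their list had 6 of 8 genes detected, with Sox4 highest at 28.03 TPM, Neurog2 lowest at 0.06 TPM, and Eomes and Neurog2 under 1 TPM in both libraries.

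The deposited second quantification, made from the same reads, gave a different balance within the stathmins. As a share of nuclear protein-coding TPM, Stmn4 was 1.66 times and Stmn1 1.29 times its share in the first quantification, while Stmn2 was 0.676 times. Stmn1 at 1845 and 1919 TPM then stood above Stmn2 at 997 and 998 TPM, a ratio of 1.89 ± 0.050 where the first quantification gave 0.992 ± 0.030. The ratio of Stmn2 to Stmn4 was 1.64 ± 0.072 in the second and 4.03 ± 0.22 in the first. The other 7 genes kept 0.830 to 1.10 times their share, and the 10 genes together took 0.882 ± 0.0044%.

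For Stmn2 and Stmn4, short transcripts without a complete protein held the difference. In the first quantification 282 and 262 TPM of Stmn2 were given to Stmn2-203, a processed transcript of 308 bases from the 3′ end of the gene. It held 4.32% of the Stmn2 counts but 29.9 ± 1.18% of the Stmn2 TPM, because TPM divides by length, and the second quantification gave it 0. In the second quantification 320 and 259 TPM of Stmn4 were given to Stmn4-209, an incomplete coding transcript of 418 bases, to which the first gave 0. Stmn4-209 held 47.6 ± 5.12% of the Stmn4 TPM there but 10.4% of the Stmn4 counts. When only transcripts with a complete coding sequence were summed, a choice made after these values were seen, the 10 genes stood in the same order in both quantifications and no neighbours overlapped in either. That order was Stmn1, Stmn2, Stmn3, Map2, Map1b, Mapt, Stmn4, Map1a, Map6 and Dcx. Stmn3 thus stood above Map2, the reverse of their order at gene level. Complete coding Stmn1 stood at 887 and 910 TPM and Stmn2 at 632 and 636 TPM in the first quantification, a ratio of 1.42 ± 0.019, against 1.89 ± 0.054 in the second. The second quantification then gave 0.849 (Stmn4) to 1.29 (Stmn1) times the share of the first.

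**Figure D2:**
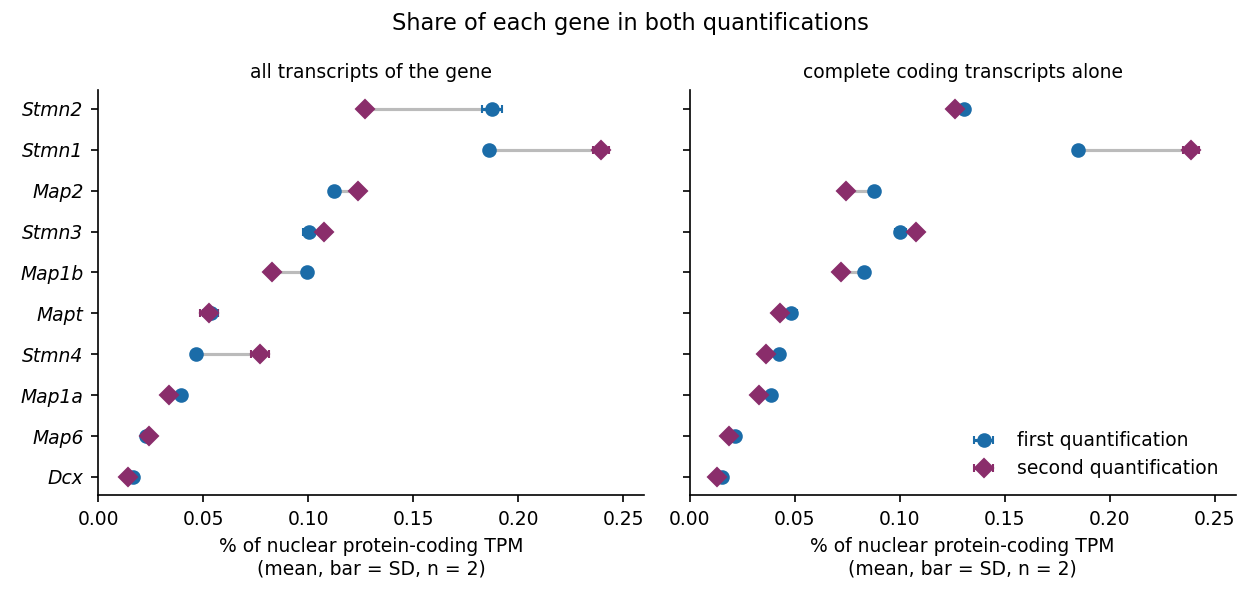
Share of each gene in the TPM of nuclear protein-coding genes, in percent (mean, with the SD of 2 libraries as bars), in the first (circles) and second (diamonds) quantification, for all transcripts (left) and complete coding transcripts alone (right). Stmn2, Stmn1 and Stmn4 lie far apart on the left, and on the right Stmn1 alone still does, at 0.185% in the first and 0.239% in the second.

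Long and short MAP2 were both abundant. The 1828-residue protein, the high-molecular-weight form called MAP2B, is encoded by Map2-204, which alone holds the central exon of 3741 bases (1247 residues, chromosome 1, 66412407 to 66416147). Map2-204 held 41.2% and 41.7% of the Map2 TPM in the first quantification, a mean of 41.5 ± 0.37%, and 31.6% and 31.7% in the second. The 467-residue juvenile form, MAP2C, is encoded by Map2-201, Map2-202 and Map2-205, which together held 34.9 ± 1.13% and 26.1 ± 0.98%. The long form was the higher of the 2 in each library of each quantification.

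Much of the remaining Map2 TPM lay on incomplete coding transcripts, and here the quantifications differed. These 9 transcripts held 16.4 ± 0.59% in the first and 35.5 ± 0.63% in the second, where Map2-218, of 546 bases, alone had 211 and 219 TPM. Map2-218 held 22.1% of the Map2 TPM there but 1.29% of the Map2 counts. Among complete coding transcripts alone the long form held 53.0 ± 0.019% in the first quantification and 52.4 ± 0.50% in the second, and the 467-residue form 44.6 ± 1.04% and 43.1 ± 1.32%. Which transcript carried the short form was not settled by the data, since the first quantification placed 31.7% of the Map2 TPM on Map2-201 and the second 24.7% on Map2-202, which differ in their 5′ exons and encode the same protein. The last exon is annotated with 397 bases in Map2-204 and 3790 or 3792 in the 467-residue transcripts. Reads from beyond the annotated end of Map2-204 could therefore not be given to it, and how much this moved the balance was not tested.

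Little Map2 RNA was assigned to transcripts with the additional repeat. The 498-residue form of Map2-206 and Map2-207, which adds a 93-base exon encoding a repeat of 31 residues to the short form, held 1.51 ± 0.23% of the Map2 TPM in the first and 1.502 ± 0.15% in the second quantification. Of 11 annotated transcripts that span both neighbouring exons, 4 hold the exon and 7 skip it, so both choices could be read for the short form. The complete holders, Map2-206 and Map2-207, are both of the short form, and Map2-220 and Map2-221 are incomplete. Reads of a long MAP2 RNA with this repeat exon therefore had no complete transcript of their own to go to. Those with the exon held 1.94 ± 0.26% of the TPM of the 11 in the first and 2.49 ± 0.23% in the second. An exon of 246 bases before the central exon, which marks MAP2A-type RNA, occurs in 1 incomplete transcript, Map2-223, at 0.848% and 1.14% of the Map2 TPM. Reads of a full RNA with this exon had no complete transcript of their own to go to. How much MAP2A-type RNA there was therefore cannot be read from these tables. A 466-residue form, Map2-203, held 0.388 ± 0.549% and 1.17 ± 0.624%.

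**Figure D3:**
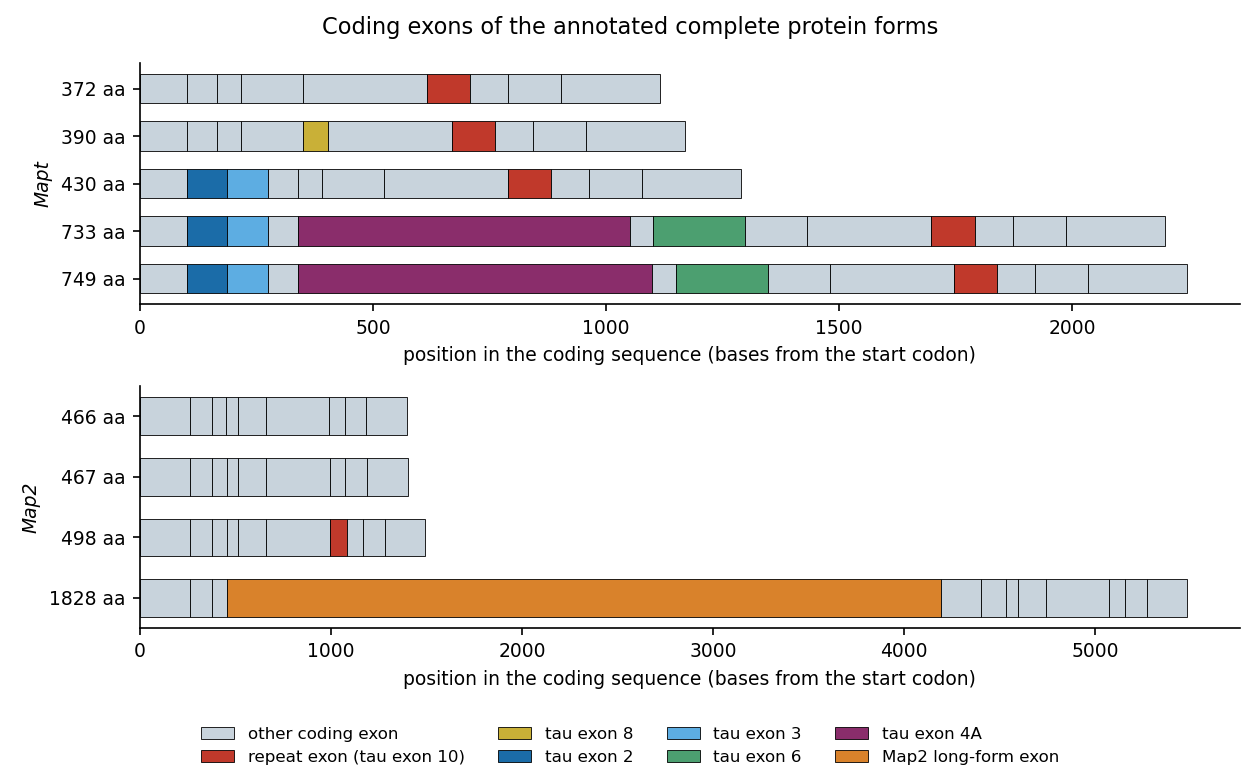
Coding exons of each complete protein form of Mapt (above) and Map2 (below), drawn to scale in bases from the start codon, with alternative exons in colour. Every Mapt form holds the repeat exon, the 498-residue form is the only complete Map2 form that does, and the central exon of 3741 bases sets the 1828-residue Map2 form apart.

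Most tau RNA was assigned to the form with the exon 10 repeat and without N-terminal inserts. Mapt-204, which encodes 372 residues, had 219 and 237 TPM in the first quantification and held 87.8 ± 1.91% of the Mapt TPM, and 77.5 ± 3.51% in the second. The 430-residue form with both inserts (exons 2 and 3, each of 87 bases and 29 residues), Mapt-201, held 1.56 ± 0.90% and 3.35 ± 1.503%. Its libraries lay apart, at 0.925% in replicate 1 and 2.20% in replicate 2 of the first quantification. Mapt-204 is annotated with a last exon of 4119 bases and the other complete forms with 216 to 464. Reads from beyond the ends of those forms could only be given to Mapt-204, and how much this moved the shares was not tested. No complete form holds exon 2 without exon 3. Exon 2 was in transcripts with 6.11 ± 0.38% of the Mapt TPM and exon 3 with 2.16 ± 0.89%. Of the exon 2 share, 3.66 ± 0.51% lay on Mapt-207, an incomplete coding transcript of 293 bases with 0.154% of the Mapt counts. In the second quantification, which gave Mapt-207 0, exons 2 and 3 were each at 4.19 ± 1.47%.

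The other complete tau forms held little of the Mapt TPM. Big tau, which carries the long exon 4A and is known from peripheral neurons, is encoded by Mapt-202 (733 residues) and Mapt-203 (749 residues). In the first quantification replicate 1 gave 0.611% of the Mapt TPM to Mapt-202 and 0 to Mapt-203, and replicate 2 gave 0 and 0.590%. Big tau thus had reads in both libraries, on a different transcript in each. Exon 4A has 711 bases in Mapt-202 and 759 in Mapt-203, and which of them carried the reads was not settled. In the second quantification Mapt-203 held 0.842 ± 0.029% and Mapt-202 almost nothing (1.5e-08%). The 390-residue form with exon 8, Mapt-205, held 0.400 ± 0.099% and 0.421 ± 0.224%. Incomplete coding transcripts (Mapt-207, Mapt-208 and Mapt-211) held 5.85 ± 0.10% and 1.48 ± 0.40%. Transcripts without a coding sequence held 3.799 ± 0.83% and 16.4 ± 2.21%, and in the second quantification most of this was Mapt-210, of 779 bases, with 50.6 and 65.9 TPM. Mapt-210 held 14.0% of the Mapt TPM there but 1.55% of the Mapt counts.

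The balance of 3-repeat and 4-repeat tau cannot be read from these tables. Transcripts annotated with exon 10 at its exact bounds (104318157 to 104318249) held 90.3 ± 0.93% of the Mapt TPM in the first quantification. In the second they held 82.1 ± 1.81%. Mapt-210, which starts upstream of this exon at 104318033, was not counted among them, and whether it covers exon 10 was not tested. All 5 annotated transcripts that span both neighbours of exon 10 hold it and 0 skip it, so reads of a transcript that skipped it had no complete transcript of their own to go to. The share is in this sense set by the annotation, in contrast to that of the repeat exon in the short form of Map2.

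**Figure D4:**
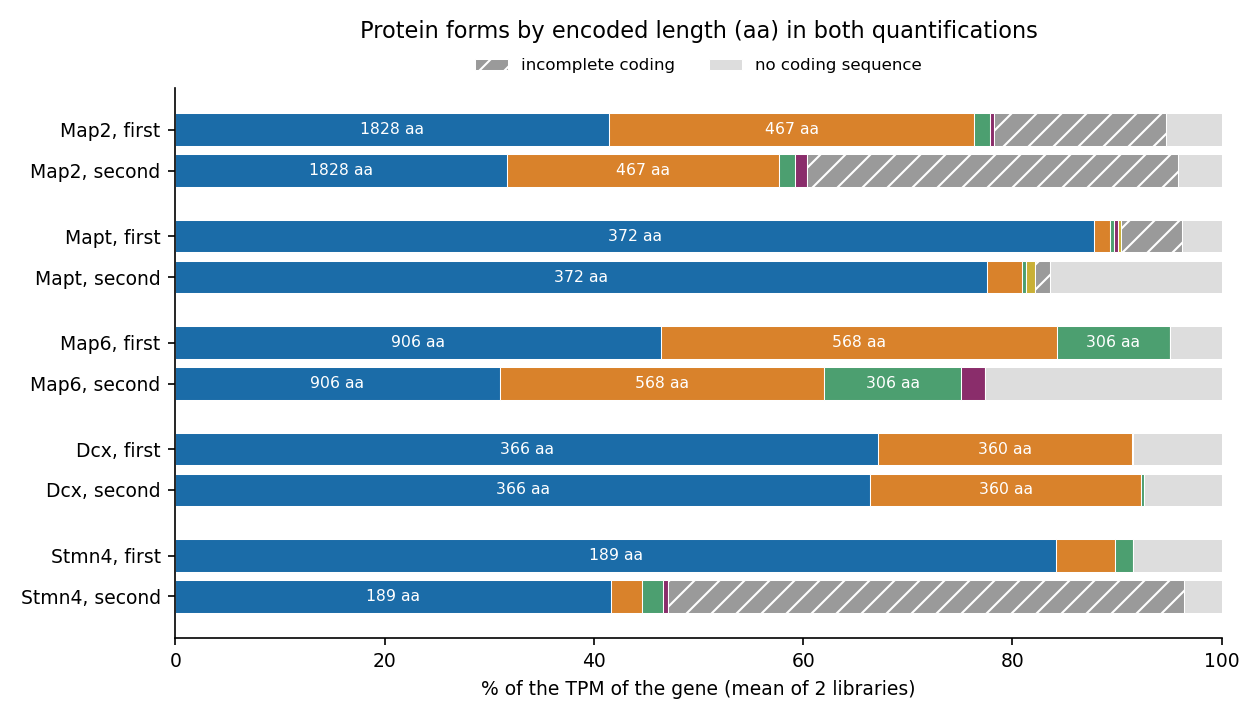
Percent of the TPM of each gene (mean of 2 libraries) held by each complete protein form, named by its length in residues (aa) where it exceeds 7%, by incomplete coding transcripts (hatched) and by transcripts without a coding sequence (light grey), in the first and second quantification. Dcx divides alike in both, whereas the hatched part of Map2 and Stmn4 is larger in the second, at 35.5% and 49.4%.

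Map1a and Map1b were each read mainly as 1 protein. Of Map1a, 80.3 ± 0.41% of the TPM lay on the 2776-residue form (Map1a-202) and 18.8 ± 0.93% on the 3014-residue form (Map1a-201), with 81.3 ± 0.63% and 17.6 ± 0.13% in the second quantification. Of Map1b, 83.0 ± 0.068% lay on the 2464-residue form (Map1b-201), and 86.5 ± 0.29% in the second. Nearly all the rest of Map1b was on transcripts without a coding sequence, which held 16.5 ± 0.093% of its TPM but 2.93% of its counts. The second quantification placed 74.0 and 78.1 TPM of this on Map1b-202 and 0 on Map1b-206, while the first gave Map1b-206 42.0 and 51.1 TPM.

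Map6 was split between long and short forms. The 906-residue protein, known as MAP6-N (STOP) of neurons, is encoded by Map6-201 and Map6-205, which together held 46.4 ± 0.79% of the Map6 TPM in the first and 30.99 ± 0.89% in the second quantification. The 568-residue form, Map6-204, held 37.8 ± 0.99% and 31.02 ± 0.76%. As a single transcript it was the most abundant in both, while the 906-residue form was divided between transcripts of 3430 and 3431 bases. The 306-residue form of Map6-202 and Map6-206 held 10.9 ± 0.68% and 13.1 ± 0.20%. Map6-209, a processed transcript of 677 bases, had 0.73 and 1.69 TPM in the first quantification and 35.1 and 38.1 TPM in the second. In the second it held 19.2% of the Map6 TPM but 2.20% of the Map6 counts. Among complete coding transcripts the 906- and 568-residue forms stood at 48.8% and 39.8% in the first and at 40.0% and 40.1% in the second, so their order depended on the quantification.

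Dcx gave the same picture in both quantifications. Its forms differ by the ends of a pair of coding exons, shown here because these few bases account for the difference in length. The first lies at chrX:143875755-143875799 and the second at chrX:143870607-143870651, both on the minus strand, and capitals mark the 15 and the 3 bases left out of shorter forms.
Dcx exon end with 15 optional bases: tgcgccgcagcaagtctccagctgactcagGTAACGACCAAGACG
Dcx exon end with 3 optional bases: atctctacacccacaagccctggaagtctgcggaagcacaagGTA

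The 366-residue form of Dcx-201 and Dcx-202, which holds both stretches, took 67.2 ± 0.74% of the Dcx TPM and 66.4 ± 0.16% in the second quantification. The 360-residue form of Dcx-204, which holds neither, took 24.2 ± 0.87% and 25.9 ± 0.67%. The 365-residue form, which lacks only the shorter stretch, took 0.0805 ± 0.11% and 0.296 ± 0.42%. Dcx-204 is annotated with a last exon of 135 bases and Dcx-201 with one of 7766, and by counts the 360-residue form held 4.69 ± 0.19%.

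The stathmins were read mainly as 1 protein each. The 149-residue form held 99.0 ± 0.16% of the Stmn1 TPM and 99.3 ± 0.023% in the second quantification, although the second gave 467 and 530 TPM to Stmn1-203 and the first 5.60 and 9.35 TPM to this transcript of the same protein. Stmn2-201, of 179 residues, is the only complete coding transcript of Stmn2 and held 69.7 ± 1.15% and 99.5 ± 0.11%. Stmn3 has 1 annotated transcript, Stmn3-201, of 180 residues. Stmn4-201, of 189 residues, held 84.1 ± 0.20% of the Stmn4 TPM in the first and 41.6 ± 4.03% in the second. Among complete coding transcripts it held 92.0 ± 0.79% and 88.5 ± 0.68%. The 81-base exon of Stmn4, which adds 27 residues, was in transcripts with 7.35 ± 0.81% and 6.80 ± 1.64% of the TPM. For 9 of the 10 genes both quantifications put the same transcript first, Stmn4 being the exception.

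The 2 libraries differed little in these genes. In none of the 10 was the higher library 25% or more above the lower, as it was in 943 of the 12835 genes that averaged at least 100 expected counts (7.35%), and 12 of the 1281 nuclear protein-coding genes at or above the level of Dcx (0.937%). The count of 0 of 10 is therefore near what genes of this level showed in general. Mapt had the widest gap, 1.12-fold, with a log2 ratio of replicate 1 to replicate 2 of -0.16. Its ratio of counts, each scaled to the library total, was 0.922 (95% Clopper-Pearson interval 0.906 to 0.939, which covers counting error only). In its range of levels, 90% of 181 genes lay between -0.14 and 0.11. The median log2 ratio of the 10 genes was -0.04, as it was over all 12835 genes (-0.04). Replicate 2 was the higher for 8 of 10, where it was for 62.1% of all genes and for 59.3% of those at or above Dcx. Under DESeq2 size factors replicate 1 was the higher for 6 of 10, so no direction is read from this.

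**Figure D5:**
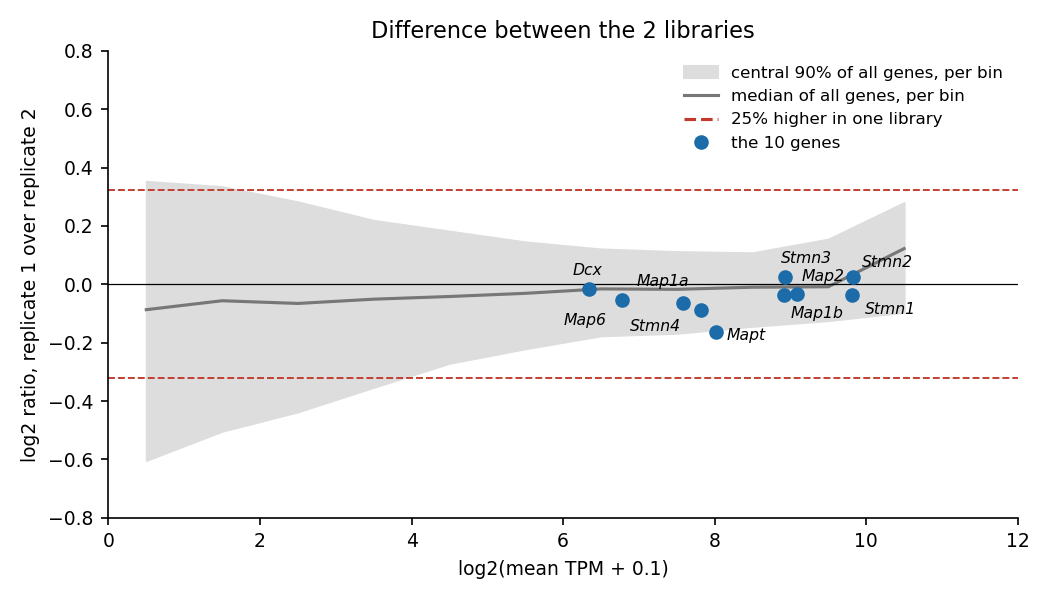
Log2 ratio of TPM, replicate 1 over replicate 2, against mean level on a log2 axis for the 10 genes (points), with the median (line) and the central 90% (band) of the 12835 genes in bins of level, and a 25% excess of either library as dashed lines. All 10 points lie inside the dashed lines, and Mapt, at -0.16, is the only one of them below the band of its bin.

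Defining markers of cortex were present in both libraries, and some lists of other cells differed between them. All 6 of 6 markers of cortical glutamatergic neurons were detected, between a mean of 38.4 TPM for Neurod6 and 491 TPM for Slc17a7, with a summed level of 1207 TPM in replicate 1 and 1196 TPM in replicate 2. All 6 of 6 interneuron markers were detected, between 12.7 TPM for Dlx1 and 175 TPM for Sst, summing to 364 and 368 TPM. The choroid plexus list summed to 9.57 TPM in replicate 1 and 314 TPM in replicate 2, with Ttr highest at a mean of 155 TPM, 1 of 6 markers detected in both and Otx2, the lowest, under 1 TPM in both. Striatal markers (6 of 6 detected, between Drd2 at 3.41 TPM and Ppp1r1b at 48.8 TPM) summed to 149 and 104 TPM. Erythroid markers (5 of 5, between Alas2 at 5.02 TPM and Hbb-bs at 355 TPM) summed to 1213 and 836 TPM. Markers of immature neurons and progenitors summed to 58.7 and 71.5 TPM. Those of the oligodendrocyte lineage (8 of 8, between Mog at 4.45 TPM and Mbp at 154 TPM) summed to 443 and 406 TPM, and those of astrocytes (6 of 6, between Aldh1l1 at 25.9 TPM and Aldoc at 158 TPM) to 519 and 562 TPM. Cell cycle markers (6 of 6, between Aurkb at 1.64 TPM and Top2a at 4.93 TPM) summed to 17.3 and 15.5 TPM. Microglial markers (6 of 6, with Tmem119 lowest at 7.45 TPM) summed to 139 and 137 TPM and endothelial markers (6 of 6, between Slco1a4 at 7.58 TPM and Cldn5 at 37.1 TPM) to 84.7 and 89.0 TPM, and none of these 12 differed by 25% or more. The part of these differences in the ratios of the 10 genes was not tested.

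The wider set of microtubule regulators was also expressed almost in full, at lower levels than most of the 10 genes, whose median was 372 TPM. Of 18 other proteins that bind the microtubule lattice, 17 were detected, with a median of 36.9 TPM. Dclk1, a doublecortin-like kinase, was highest at 444 ± 13.01 TPM, above Dcx itself, and Map7d3 was under 1 TPM in both libraries. All 16 plus-end and minus-end proteins were detected, between 17.4 TPM for Slain2 and 186 TPM for Mapre2 (EB2). Of 10 severing enzymes and depolymerising kinesins, 7 were detected, led by Kif2a at 69.96 ± 1.24 TPM, while Kif18a and Fignl2 were under 1 TPM in both libraries.

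Genes linked to the MAPs, to stathmins or to MAP RNA were detected throughout. All 5 genes of the light chain 3 family, named for a protein first found with MAP1 and now known for autophagy, were detected, between 76.7 TPM for Map1lc3b and 231 TPM for Map1lc3a. All 17 kinase and phosphatase genes that act on tau, MAPs or stathmins were detected, between 47.4 TPM for Mark1, which phosphorylates the tau repeats, and 223 TPM for Cdk5r2, an activator of Cdk5. All 14 splicing regulators linked to Mapt or Map2 exons were detected, between 20.4 TPM for Nova1 and 264 TPM for Celf2. Of the 76 genes with 100 or more counts in these 6 lists, 1 differed by 25% or more between the libraries. The share was 7.35% over all 12835 genes with such counts and 0.937% over the 1281 at or above Dcx. Nothing particular to these lists is read from the count.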

How the data were processed

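The authors deposited 3 tables per library, built on mm10 with GENCODE M21, per the labels and per the submitters' processing notes. Per the file headers, the first quantification holds expected counts, TPM, posterior mean TPM with interval bounds (a signal of unstated level, not used here as an error) and the percent of each gene's TPM per transcript. Per the file headers, the second holds estimated counts and TPM per transcript, summed here by gene. Which programs made them, and whether strand was used, is not stated in the labels. In the first, effective length was length minus 99 bases, which raises the TPM of short transcripts. In the second too, some short transcripts held far more of the TPM than of the counts, such as Mapt-210 at 14.0% and 1.55%. Depth was 31254528 and 30218308 expected counts in replicates 1 and 2. The libraries differed by more than counting noise (chi-square 5.06 per degree of freedom, 18515 genes), so neither is a copy of the other, which does not show that they came from separate animals. The reference carries 1 parent strain, and alleles were not separated.

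Genes were matched by symbol and versioned identifier. Protein length came from the GENCODE M21 coding sequence, and a transcript was called complete when GENCODE does not tag the start or end of its coding sequence as missing. Sequences came from the GENCODE M21 transcripts, and some items are not reported here. Ratios were log2 of TPM plus 0.1, over genes averaging at least 100 expected counts. The alternatives were the second quantification, posterior means, counts scaled to the library total, a pseudocount of 1, TMM (edgeR 4.0.16), DESeq2 1.42.0 size factors, ERCC totals, other minimum counts and each library alone. Python 3.11.15, pandas 2.3.3, numpy 2.4.6, scipy 1.17.1 and R 4.3.3 were used, and the ratio calculation was tested on simulated data. All 10 genes are named. Of other lists the highest and lowest genes and any under 1 TPM are named, and transcripts are named at 10% or more of a gene's TPM, with every coding transcript of Mapt and Map2. The genes and lists were chosen with earlier results of these data known.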

Additional observations from a re-analysis of the deposited data

How the results depend on the processing

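The count of 10 genes detected and the count of 0 past a 25% difference stayed as reported under each alternative run. The other minimum counts apply to the background of all genes and could not change the count of 0. The median log2 ratio of the 10 genes, -0.04, was -0.01 with TMM and 0.01 with DESeq2 size factors, so its sign depended on the scaling, while the median of all genes was 0.00 and 0.02 there. The share of the 10 genes in nuclear protein-coding TPM, 0.864%, was 0.882% in the second quantification, 0.848% with posterior means and 0.420% with all records in the total, and 0.864231 to 0.864701% in single libraries. Overlapping neighbours numbered 2, against 0 in the second quantification, 0 by scaled counts and 0 among complete coding transcripts of either quantification. The Mapt share with exon 10, 90.3%, was 82.1% in the second quantification, 93.9% among protein-coding transcripts, 99.1% by expected counts and, by annotation, 100% among complete coding transcripts of either quantification, with 89.7 to 91.0% in single libraries. The long Map2 share, 41.5%, was 31.7% in the second quantification, 43.8% among protein-coding transcripts, 54.6% by expected counts, and 53.0% and 52.4% among complete coding transcripts in the first and second, with 41.2 to 41.7% in single libraries. The restriction to complete coding transcripts was chosen after seeing the data, and the causes of these moves were not tested. Over all genes, 943 passed that difference, against 1222 in the second quantification, 675 with a pseudocount of 1, 479 with TMM, 462 with DESeq2 size factors, 554 with ERCC totals, 3408 with a minimum count of 10 and 10450 with none. With 2 libraries of 1 group, precision rests on a single difference per gene. Some transcripts under about 1% of a gene, such as each big tau transcript in the first quantification, were given reads in 1 library only. Big tau as a whole had reads in both libraries. No paired analysis was possible because there is 1 group and no comparison between groups.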
